A study of Mus musculus with 12 samples.

Results

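The intercalated cell acid-base genes are 10 genes by which certain epithelial cells of the collecting duct secrete acid or bicarbonate into urine. They were taken from the gene table by symbol, 10 of the 36186 genes listed, by a rule that uses no measured value, though with earlier results of these data known. They comprise a transcription factor (Foxi1), 4 subunits of the vacuolar proton pump (Atp6v1b1, Atp6v1g3, Atp6v0d2 and Atp6v0a4), 3 anion exchangers (Slc4a1, Slc26a4 and Slc4a9), a carbonic anhydrase (Car2) and an ammonia transporter (Rhbg). All 10 passed the filter on low counts in each comparison.

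The data are 12 RNA-seq libraries of whole kidney from mouse embryos at E18.5, of mixed background, with 3 libraries for each of 4 genotypes. The groups, as labelled, were wild type (WT), Hoxa9,10,11-/- HoxC9,10,11+/- (AkCh), Hoxa9,10,11+/- HoxC9,10,11-/- (AhCk) and Hoxa9,10,11-/- HoxC9,10,11-/- (AkCk). The mutations are germ line frameshifts in flanking genes of each cluster. The study describes the sequenced double mutants as keeping Hoxa11 alleles, which the sample labels do not show, and the labels do not tell which AkCk library has which allele. The comparisons ask how the loss of Hox function changes gene expression in the kidney, with AkCk against WT as the most severe genotype. By their labels the 9 libraries of WT, AkCh and AkCk share a sequencing run and the AhCk libraries come from a separate one, so the AhCk genotype and the run cannot be told apart. The labels do not state that the libraries of a group are separate embryos, and p-values measure only the spread between these libraries.

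Total counts on genes ranged from 28616877 in AkCh 20 to 47067903 in AhCk 110. Levels are given as CPM, counts scaled to a common library total with TMM factors over the 12 libraries, and group values as mean ± SD with n = 3. Differences are log2 fold changes with 95% intervals, not adjusted for the number of genes, from edgeR's quasi-likelihood test on the 6 libraries compared. A gene was called at a Benjamini-Hochberg adjusted p under 0.05 over all genes tested.

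The targeted genes carry frameshifts, not deletions of whole genes, and did not all separate the genotypes by level. Hoxa9 was at 24.3, 24.4 and 26.4 CPM in WT and at 26.6, 25.9 and 23.9 CPM in AkCk. Hoxc10 was lower, at 50.1, 58.9 and 66.9 CPM in WT and 37.9, 29.1 and 35.7 CPM in AkCk. RNA levels of these genes therefore check the labels only in part.

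Library AkCh 20 stood apart from the other 11. It had the fewest counts, and its genes deviated from the 12-library mean by exon length. The median log2 deviation was 0.78 for the 182 genes under 1 kb and -0.29 for the 2312 genes over 8 kb. In the other libraries these medians lay between -0.21 and 0.13. It also held the lowest level of 8 of the 10 genes over the 12 libraries, the exceptions being Atp6v1g3 and Slc4a9. The comparisons with AkCh are given with and without it.

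**Figure D1:**
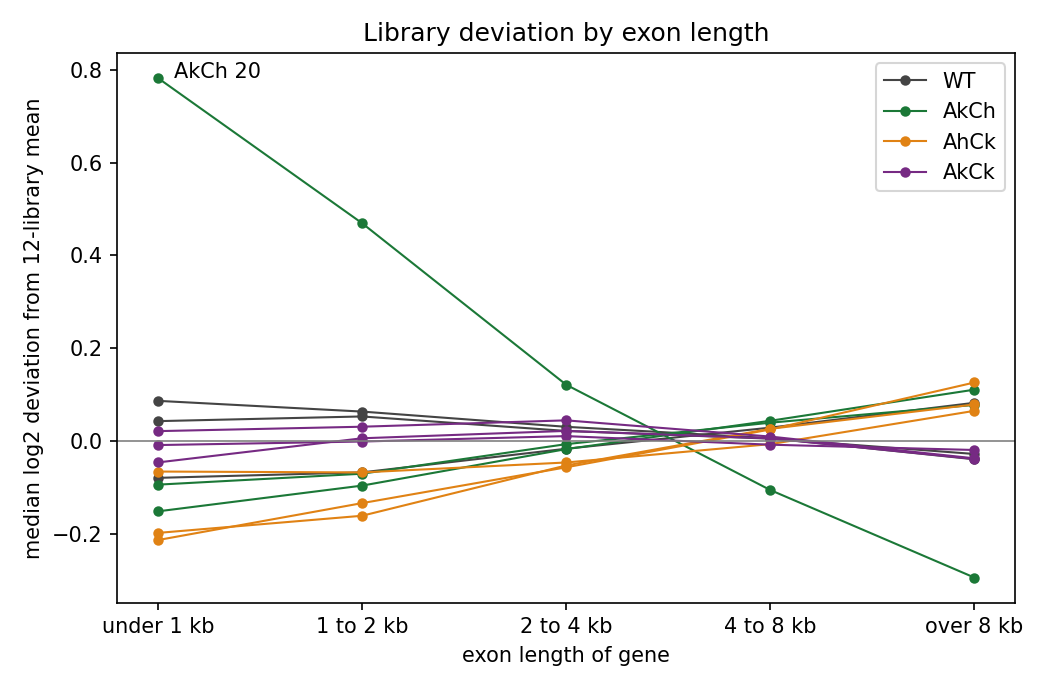
Median log2 deviation of each library from the 12-library mean (vertical axis) in 5 classes of exon length (horizontal axis), 1 line per library, coloured by genotype. AkCh 20 runs from 0.78 in the shortest class to -0.29 in the longest, outside the range of the other libraries at both ends.

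The sexes were also unevenly spread. Xist, the RNA of the inactive X chromosome, was between 60.0 and 336.1 CPM in AkCh 31, AkCh 33, AhCk 110, AkCk 27 and AkCk 29, and at most 0.139 CPM in the other 7 libraries. All 3 WT libraries had the low level, with the Y-linked gene Ddx3y at 85.2 to 93.5 CPM. A fit with Xist as a covariate, which held all 12 libraries, is given beside the 12-library fit without it where a call changes.

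Intercalated cells acidify urine with a vacuolar proton pump, a rotary enzyme made of a cytoplasmic V1 part that splits ATP and a membrane V0 part that carries protons. Carbonic anhydrase supplies the proton and a bicarbonate ion, which leaves through an anion exchanger on the opposite face of the cell. Type A cells place the pump on the luminal side and Slc4a1 on the blood side, whereas type B cells carry Slc26a4 on the luminal side. Foxi1 is a forkhead transcription factor needed for these cells to form, and it is known to activate genes of the pump.

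RefSeq promoter sequences of GRCm38.p6, from 250 bases before to 50 after the start, were matched for 5 of the 10 genes, Foxi1, Atp6v1b1, Atp6v1g3, Atp6v0a4 and Slc26a4. They were searched on both strands for TGTTTAC, a core that forkhead factors bind, which 3.65% of the 32851 promoters in the table hold. Among the 5, the letters were found in Atp6v1b1, 98 bases before the start, and are in capitals. The promoter of Atp6v1g3 is shown beside it because this gene was the member called in AkCk, and it does not hold these letters in this window. Atp6v1b1 is at chr6:83742767-83743066 and Atp6v1g3 at chr1:138273488-138273787, both on the plus strand.
Atp6v1b1: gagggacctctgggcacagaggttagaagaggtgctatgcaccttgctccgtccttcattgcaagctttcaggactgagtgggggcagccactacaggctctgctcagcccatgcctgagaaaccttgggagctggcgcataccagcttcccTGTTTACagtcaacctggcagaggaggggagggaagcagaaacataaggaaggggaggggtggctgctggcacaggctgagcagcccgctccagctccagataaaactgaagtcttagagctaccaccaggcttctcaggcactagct
Atp6v1g3: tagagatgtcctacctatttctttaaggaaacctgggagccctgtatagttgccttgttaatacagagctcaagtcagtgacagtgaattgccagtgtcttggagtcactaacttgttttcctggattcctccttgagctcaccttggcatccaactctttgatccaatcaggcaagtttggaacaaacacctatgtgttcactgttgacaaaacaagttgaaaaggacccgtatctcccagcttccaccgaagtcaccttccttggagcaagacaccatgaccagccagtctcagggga
A match is a description of the letters and was not tested for binding. Only TGTTTAC was searched, so its absence does not show that a promoter lacks a forkhead site.

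In AkCk against WT, 1 of the 10 genes was called lower and 0 higher. Over all 15839 genes tested, 7.4% were called lower and 6.31% higher, so the count among the 10 is near the background. The called gene was Atp6v1g3, and 5 of the 10 estimates lay above 0 and 5 below. The median log2 fold change of the 10 was 0.01, beside -0.01 for all genes tested. Single libraries turn its sign. It was -0.25 without AkCk 27, -0.11 without WT 37 and -0.034 without WT 55, and 0.050 without AkCk 24, 0.08 without WT 30 and 0.10 without AkCk 29. The largest estimates were -0.63 for Atp6v1g3 and 0.59 for Atp6v0a4. By DESeq2, 2 of the 10 were called lower, Atp6v1g3 and Slc4a9, beside 10.7% of the 15222 genes it tested. The Atp6v1g3 call was lost without WT 37, WT 55, AkCk 24 or AkCk 29, and without WT 30 Atp6v0a4 was called higher. Over all genes 46% of the 2171 calls were higher, and 31% of 2391 with scaling by library size only. The number of calls was 3386 without WT 30, 535 without WT 37, 633 without WT 55, 793 without AkCk 24 and 1101 without AkCk 27.

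**Figure D2:**
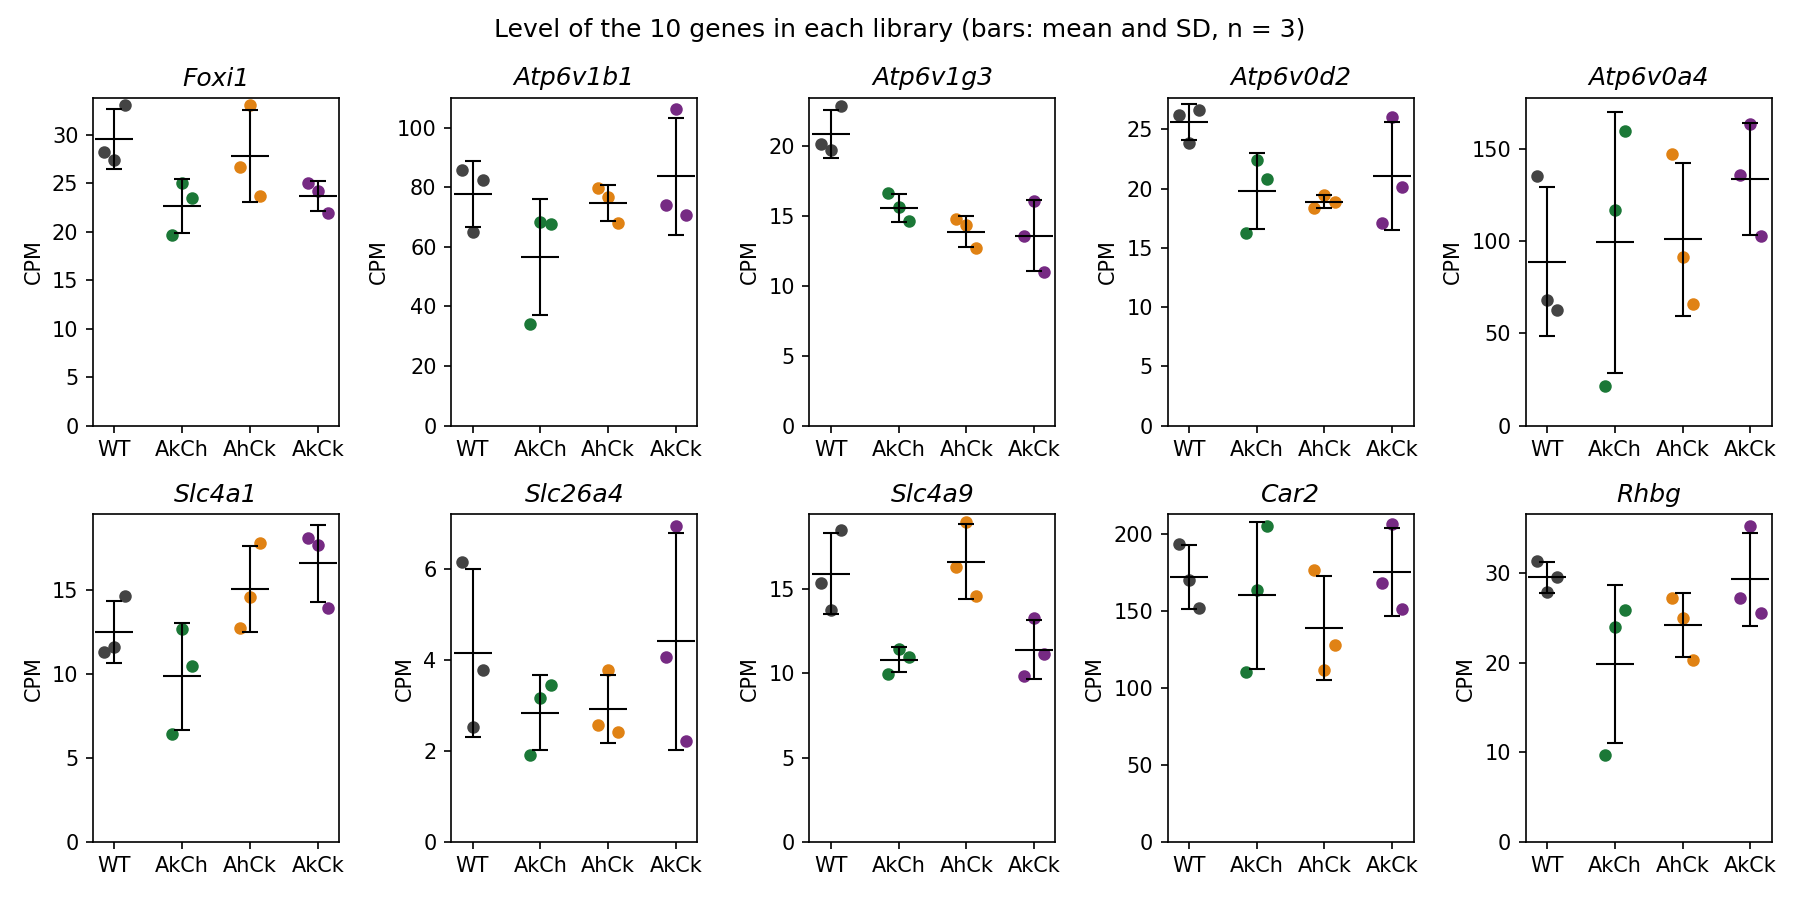
CPM (vertical axes, from 0) of each of the 10 genes in the 12 libraries, by genotype (horizontal axes). Points are libraries and bars are mean and SD of n = 3. The 9 mutant libraries lie below all WT libraries for Atp6v1g3, and the spread of Atp6v0a4 within each genotype is wide.

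Foxi1 lies at chr11:34204341-34208089 (Entrez 14233). It was at 28.3, 27.4 and 33.1 CPM in WT, 25.0, 24.2 and 22.0 CPM in AkCk, 19.6, 25.1 and 23.5 CPM in AkCh, and 26.7, 33.04 and 23.7 CPM in AhCk. All AkCk and AkCh libraries were below all WT libraries, and AhCk overlapped WT. The difference of AkCk from WT was -0.32 (interval -0.56 to -0.08; edgeR adjusted p = 0.0776) and did not pass the threshold. With scaling by library size only, edgeR gave -0.39 (adjusted p = 0.0458). In bulk tissue, fewer cells of a type and less RNA per cell cannot be told apart.

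Atp6v1g3 encodes a G subunit of the V1 stalk that is found mainly in kidney, and lies at chr1:138273738-138289462 (Entrez 338375). It was at 20.1, 19.7 and 22.9 CPM in WT and at 13.6, 16.1 and 11.0 CPM in AkCk. The level was 16.6, 15.6 and 14.6 CPM in AkCh and 14.8, 14.3 and 12.7 CPM in AhCk. All 9 mutant libraries were below the lowest WT library. The share of all genes with this pattern was not counted, and the same WT libraries serve each comparison.

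Atp6v1g3 fell in AkCk by 0.63 on the log2 scale (SE 0.15, interval -0.97 to -0.28; edgeR adjusted p = 0.0336), to 0.648 of the WT level, lower in 3 of 3 libraries. The call was close to the threshold. It was lost with 4 of the 6 libraries left out in turn, WT 37, WT 55, AkCk 24 and AkCk 29, with adjusted p from 0.0262 to 0.121 over the 6. In the fit of all 12 libraries the adjusted p was 0.0247, and with Xist added to that fit it was 0.0584. The call was also lost in the fit of the 9 libraries of 1 run (adjusted p = 0.0575) and with limma on the deposited normalized values (adjusted p = 0.0646). The estimate stayed between -0.77 and -0.50 in these and all other alternatives run. In AkCk, 3 of the 10 genes, Foxi1, Atp6v1g3 and Slc4a9, lay below WT without overlap, beside 20.6% of all genes tested.

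Atp6v1b1 encodes the B1 subunit of V1, the form used by intercalated cells, whose loss in people causes distal renal tubular acidosis with deafness. It lies at chr6:83743017-83758855 (Entrez 110935). It was at 85.7, 65.0 and 82.6 CPM in WT and at 73.9, 106.3 and 70.8 CPM in AkCk, which overlap. The difference was 0.10 (interval -0.30 to 0.50; edgeR adjusted p = 0.709). In AkCh the level was 34.2 CPM in library 20 and 68.2 and 67.8 CPM in libraries 31 and 33.

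Atp6v0d2 encodes a d subunit of V0 and lies at chr4:19876838-19922566 (Entrez 242341). It was at 26.2, 23.8 and 26.6 CPM in WT, 17.1, 26.0 and 20.1 CPM in AkCk, and 18.3, 19.4 and 18.9 CPM in AhCk. The AhCk libraries were below WT with little spread, whereas AkCk 27 reached the WT level. The AkCk difference was -0.28 (interval -0.64 to 0.08; edgeR adjusted p = 0.243). With 1 library left out it ran from -0.46 to -0.15. With Xist added to the 12-library fit it was -0.45, beside -0.28 in that fit without Xist.

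Atp6v0a4 encodes the a4 subunit of V0, through which protons pass, and lies at chr6:38048483-38124586 (Entrez 140494). Its span overlaps 4 other annotated genes, among them Tmem213 and D630045J12Rik, and its counts are uncertain to that extent because the use of strand in counting is not given in the sources used here. It was at 135.6, 68.2 and 63.0 CPM in WT, 136.1, 163.5 and 102.8 CPM in AkCk, 21.5, 116.8 and 160.1 CPM in AkCh, and 147.3, 91.3 and 65.8 CPM in AhCk. WT 30 was near the AkCk libraries, and AkCh 20 was the lowest of all. The AkCk difference was 0.59 (interval -0.11 to 1.29; edgeR adjusted p = 0.215). Without WT 30 it was 1.03 and passed the threshold (adjusted p = 0.013), so this library decides the call. The lowest estimate with 1 library left out was 0.39. With Xist added to the 12-library fit the estimate was 0.21, beside 0.59 in that fit without Xist.

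Proximal tubule cells also express Atp6v0a4, and 10 markers of these cells, chosen after the values were seen, are given beside it. Their summed level was 3700, 1850 and 1420 CPM in WT 30, 37 and 55. It was 3560, 4280 and 2810 CPM in AkCk 24, 27 and 29, 561, 3170 and 4250 CPM in AkCh 20, 31 and 33, and 3960, 2380 and 1910 CPM in the AhCk libraries 38, 110 and AhCk_115. Lrp2, the endocytic receptor megalin, was the most abundant of the 10. Of these markers 0 were called in AkCk by edgeR and 0 had an unadjusted p under 0.05, with a median of 0.57. Of the estimates 8 were above 0, the exceptions being Slc5a2 at -0.69 and Slc22a8 at -0.01. Without WT 30, the library that decides the Atp6v0a4 call, 7 were called higher and the median was 1.06. The median was 0.33 without WT 55. Their part in the Atp6v0a4 values was not tested.

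**Figure D3:**
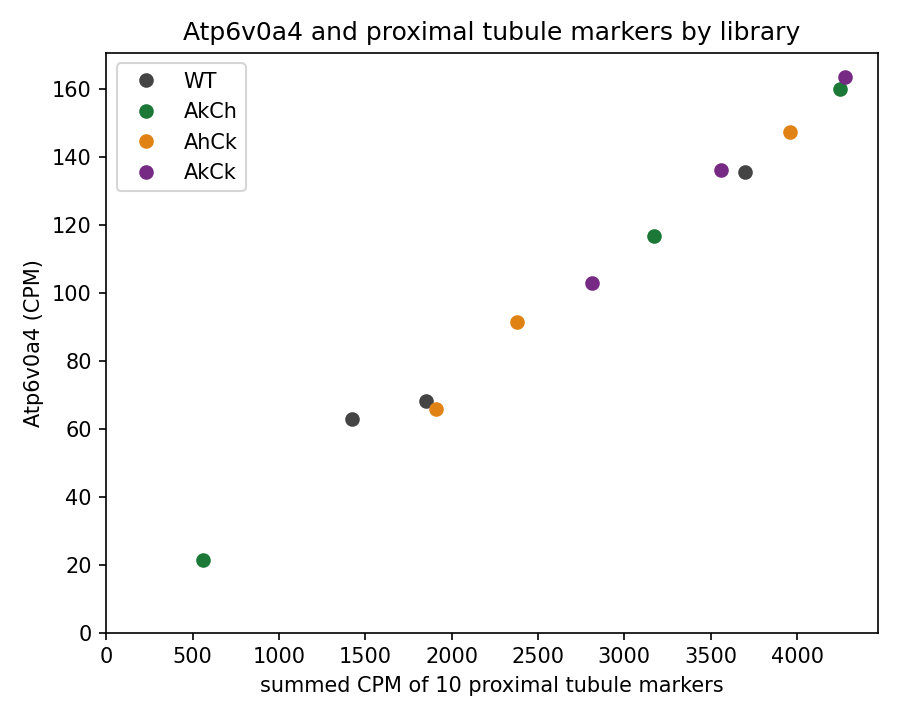
Atp6v0a4 in CPM (vertical axis) against the summed CPM of 10 proximal tubule markers (horizontal axis), 1 point per library, coloured by genotype. AkCh 20 is lowest on both axes, at 561 and 21.5 CPM, and libraries of 1 genotype are spread along both.

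Levels of the pump genes were compared with those of the widely expressed paralogs per kilobase of exon, using GENCODE exon lengths. These lengths join the exons of all transcripts of a gene, whereas the counts were made on UCSC gene models. The ratios and the order of the genes depend on these lengths. In WT, Atp6v1g1 was 13.8 ± 1.18 times Atp6v1g3 on this scale, and Atp6v0d1 was 6.11 ± 0.474 times Atp6v0d2. Atp6v1b2 was 1.83 ± 0.342 times Atp6v1b1. Atp6v0a4 was the exception, since Atp6v0a1 was 0.58 ± 0.203 times its level. In AkCk the ratios were, in the same order, 20.4 ± 3.59, 9.26 ± 2.09, 2.25 ± 0.422 and 0.417 ± 0.1, so that the last lay below its WT mean and the others above. These ratios were not tested. The highest of the 10 genes per kilobase in WT was Car2, at 70.9 ± 8.54 CPM per kb. Atp6v0a4, Atp6v1b1 and Rhbg followed at 17.9 ± 8.15, 17.8 ± 2.54 and 15.3 ± 0.883 CPM per kb. Atp6v1b1 was above Rhbg in each WT library. Atp6v0a4 was above them in WT 30 and below them in WT 37 and WT 55. The order of these genes was not tested. Foxi1, Atp6v1g3 and Atp6v0d2 were at 12.6 ± 1.3, 11.1 ± 0.91 and 9.41 ± 0.554 CPM per kb, and Slc4a1, Slc4a9 and Slc26a4 were lowest at 2.56 ± 0.381, 2.48 ± 0.373 and 1.34 ± 0.592 CPM per kb.

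Of the 21 other pump subunits and accessory proteins listed, 20 were tested in AkCk against WT, 3 were called higher and 1 lower. Their median log2 fold change was 0.22, and 0.09 without AkCk 27. The number called higher was 0 without WT 37, WT 55, AkCk 24 or AkCk 27, 1 without AkCk 29 and 7 without WT 30. The number called lower was 2 without AkCk 27 and 1 without each other library. Tcirg1, the a3 subunit of V0 best known from osteoclasts, fell by 0.72 (edgeR adjusted p = 0.00557), from 19.9, 20.8 and 20.7 CPM in WT to 13.0, 12.8 and 11.5 CPM in AkCk. Atp6v0c, which forms the proton-carrying ring, rose by 0.36 (adjusted p = 0.0252), Atp6v0e2 by 0.34 (adjusted p = 0.0493) and Atp6v0d1 by 0.28 (adjusted p = 0.0282). Atp6v0c is uncertain, since how the counting divided reads between it and its pseudogene Atp6v0c-ps2 was not tested. The pseudogene was at 63.9, 56.8 and 62.7 CPM in WT and at 76.7, 80.1 and 70.6 CPM in AkCk. Both were thus higher in all AkCk libraries than in all WT libraries. In the AhCk libraries Atp6v0c was at 370.2, 304.1 and 305.9 CPM and the pseudogene under 1 CPM. In the other 9 libraries Atp6v0c was at 42.9 to 60.2 CPM and the pseudogene at 56.8 to 80.1 CPM. Of the paralogs of the 4 members, Atp6v1b2 gave 0.37 (adjusted p = 0.118) and Atp6v1g1 -0.10 (adjusted p = 0.575). Atp6v0a1 gave 0.22 at an adjusted p of 0.050, just outside the threshold.

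Slc4a1, the anion exchanger of type A cells and of red blood cells, lies at chr11:102348820-102365281 (Entrez 20533). It was at 11.3, 11.6 and 14.7 CPM in WT, 18.1, 17.7 and 13.9 CPM in AkCk, 6.43, 12.7 and 10.5 CPM in AkCh, and 12.8, 14.6 and 17.8 CPM in AhCk. The AkCk and WT ranges overlapped through AkCk 29 and WT 55. The AkCk difference was 0.40 (interval 0.05 to 0.75; edgeR adjusted p = 0.115).

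Red cell genes vary between these libraries. Of 14 erythroid markers listed, 13 were in the table and 10 tested in AkCk against WT, and edgeR called 0, with 8 estimates above 0 and a median of 0.48. Without WT 30 or WT 37, 1 was called higher. Their summed level was 543, 1310 and 1370 CPM in WT 30, 37 and 55 and 1540, 1540 and 1150 CPM in AkCk 24, 27 and 29. It was 1990, 564 and 770 CPM in AkCh 20, 31 and 33 and 527, 1800 and 5860 CPM in the AhCk libraries 38, 110 and AhCk_115. The most abundant was Hbb-bs, a beta globin. Car1 and Rhag, which mark red cell precursors, were at most 0.0831 and 0.419 CPM. Their part in the Slc4a1 values was not tested.

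Slc26a4, the chloride and bicarbonate exchanger pendrin, lies at chr12:31519814-31560055 (Entrez 23985) and was the least abundant of the 10. It ranged from 2.52 to 6.15 CPM in WT and from 2.22 to 6.95 CPM in AkCk. The difference was 0.09 with a wide interval, -0.95 to 1.13 (edgeR adjusted p = 0.91), which holds folds from 0.518 to 2.18 of the WT level.

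Slc4a9, a bicarbonate transporter of type B cells, lies at chr18:36528066-36556272 (Entrez 240215). It was at 15.4, 13.8 and 18.46 CPM in WT, 9.83, 13.3 and 11.1 CPM in AkCk, 9.95, 11.4 and 11.0 CPM in AkCh, and 16.3, 19.0 and 14.6 CPM in AhCk. All AkCk and AkCh libraries lay below all WT libraries, and AhCk overlapped WT. The AkCk difference was -0.48 (interval -0.85 to -0.11; edgeR adjusted p = 0.0822). It passed the threshold with DESeq2 (adjusted p = 0.0413) and with Xist as a covariate over all 12 libraries in edgeR (adjusted p = 0.0444, and 0.0936 in the 12-library fit without Xist), and adjusted p ranged from 0.0413 to 0.249 over all alternatives. The difference between AkCk and AhCk was not tested, since it crosses the runs.

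Of the 8 other Slc4 bicarbonate transporters, 0 were called higher and 1 lower in AkCk, with a median of -0.09. Without WT 30, 1 was also called higher. The called gene was Slc4a3, an anion exchanger of excitable tissues and other cells, which fell by 1.47 (edgeR adjusted p = 0.00164).

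Car2, the cytosolic carbonic anhydrase, lies at chr3:14886269-14900770 (Entrez 12349). It was at 172 ± 20.7 CPM in WT, 175 ± 28.5 CPM in AkCk and 139 ± 33.8 CPM in AhCk. In AkCh it was at 160 ± 47.6 CPM, with library 20 the lowest of the 12 and the others at 163.8 and 204.9 CPM. The AkCk difference was 0.03 (interval -0.28 to 0.34; edgeR adjusted p = 0.906). Of 15 other carbonic anhydrases, 11 were tested, 2 were called higher in AkCk and 0 lower, with a median of 0.07. The median was 0.27 without WT 30, 0.20 without AkCk 29, 0.18 without AkCk 24 and 0.024 without WT 55. The called genes were Car3, up by 1.67 (adjusted p = 0.0347), and Car15, up by 1.05 (adjusted p = 0.0378). Car3 was at a low level, 0.87, 0.51 and 0.69 CPM in WT and 1.42, 1.76 and 3.46 CPM in AkCk. In AkCh 20 it was at 4.51 CPM. The number called higher was 0 without WT 37, WT 55 or AkCk 27, 1 without AkCk 24 or AkCk 29 and 3 without WT 30.

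Rhbg, an ammonia transporter of the blood side of the cell, lies at chr3:88242874-88254739 (Entrez 58176). It was at 31.3, 27.9 and 29.5 CPM in WT and 27.2, 35.3 and 25.5 CPM in AkCk, which overlap. The difference was -0.01 (interval -0.32 to 0.29; edgeR adjusted p = 0.957). In AkCh it was at 9.72 CPM in library 20 and at 23.9 and 25.9 CPM in the others.

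Other genes of the collecting duct were examined beside the 10. Of 20 other intercalated cell genes, 19 were tested, and Car15 was called higher and 0 lower in AkCk, with a median of -0.15. The counts and the median change with single libraries. The median was 0.021 without WT 30, -0.014 without AkCk 24, -0.027 without AkCk 29 and -0.24 without AkCk 27. No gene of this list was called without WT 37, WT 55 or AkCk 24. Without AkCk 27, 3 were called lower and 0 higher, without WT 30, 1 lower and 2 higher, and without AkCk 29, 2 higher and 0 lower. Of 12 principal cell genes 1 was called lower, with a median of -0.11. The median was -0.0024 without WT 55, -0.057 without AkCk 29, -0.07 without AkCk 24, -0.18 without WT 30 and -0.19 without AkCk 27. The called gene was Gata3, a transcription factor of the nephric duct lineage (log2 fold change -0.65; edgeR adjusted p = 0.0113). Without WT 37, 0 principal cell genes were called. Aqp2, the water channel that defines principal cells, gave -0.10 (adjusted p = 0.731). Of 10 genes that set the choice between the cell types, 4 were called lower and 0 higher, beside 7.4% of all genes lower, with a median of -0.23. The number called lower was 0 without WT 37, WT 55, AkCk 24 or AkCk 27, 1 without AkCk 29 and 3, beside 1 higher, without WT 30. The called genes were Elf5, a principal cell factor (-0.56, adjusted p = 0.0347), Hes1, a Notch target (-0.47, adjusted p = 0.041), the epithelial factor Grhl2 (-0.41, adjusted p = 0.0396) and Notch1 (-0.23, adjusted p = 0.0496).

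Markers of other cell types were also higher in AkCk, and some in the other genotypes. All 5 stroma markers were called higher, with a median of 1.98, and their summed level was 2630, 2670 and 2510 CPM in WT and 7750, 9560 and 8490 CPM in AkCk. Col3a1 was the most abundant. The matrix proteoglycans Lum and Dcn rose by 3.04 and 2.08, Postn by 1.98 and Col1a1 by 1.88 (edgeR adjusted p from 0.000199 to 0.000919). Of 10 macrophage and osteoclast markers, 8 were tested and 5 called higher, with summed levels of 96.7, 90.8 and 92.0 CPM in WT and 210, 214 and 162 CPM in AkCk, with Csf1r the most abundant. Emr1 rose by 1.46, Mrc1 by 1.32, C1qa by 1.09 and Csf1r by 1.08 (edgeR adjusted p from 0.000668 to 0.00639). Of 7 liver markers 3 were called higher, with sums of 7.07, 5.92 and 10.5 CPM in WT and 30.1, 36.5 and 15.0 CPM in AkCk, with Alb the most abundant. The number of liver markers called was 0 without WT 37, 2 without WT 55 or AkCk 24 and 5 without AkCk 29. Alb rose by 3.40, Ahsg by 3.04 and Ttr by 1.56 (edgeR adjusted p from 0.0119 to 0.0172). In AkCh the stroma sums were 3590, 3840 and 2830 CPM and in AhCk 3370, 4280 and 4680 CPM. The macrophage and osteoclast sums were 114, 104 and 104 CPM in AkCh and 107, 107 and 121 CPM in AhCk. The liver sums were 54.9, 39.1 and 11.2 CPM in AkCh and 21.1, 11.8 and 45.8 CPM in AhCk. For each of these lists all 9 mutant libraries had a higher sum than the 3 WT libraries. The part of these cells in the values of the 10 genes was not tested.

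**Figure D4:**
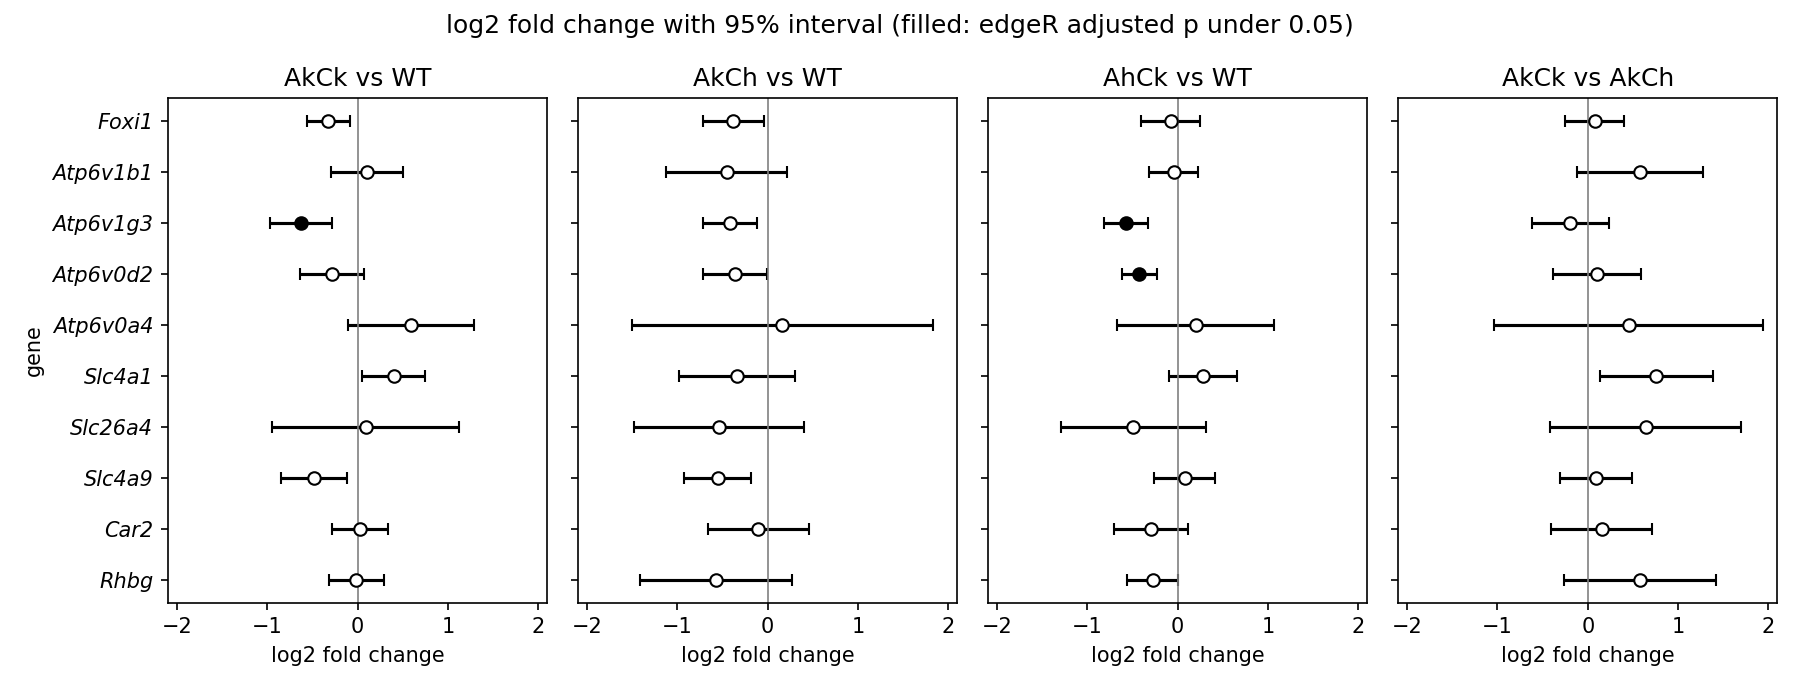
log2 fold change (horizontal axes) of each of the 10 genes (vertical axis) in 4 comparisons, with 95% intervals. Filled points passed an edgeR adjusted p of 0.05, which holds for Atp6v1g3 in AkCk and AhCk and for Atp6v0d2 in AhCk.

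In AkCh against WT, 0 of the 10 genes were called by edgeR, as were 0% of the 15789 genes tested. At an unadjusted p under 0.05 there were 360 genes, 4 of them among the 10, and DESeq2 called 22 genes in all. Of the 10 estimates 9 were below 0, with a median of -0.40 beside 0.03 for all genes. The medians of the 19 other intercalated cell genes and the 12 principal cell genes tested were both -0.29, with 16 and 9 estimates below 0, and without AkCh 20 they were -0.0080 and -0.11. Without AkCh 31 the first was -0.50. Of these lists edgeR called 0 genes, with 2 and 1 at an unadjusted p under 0.05. The 7 liver markers were above 0, with a median of 1.93, and 1.71 without AkCh 20, and edgeR called 0, with 5 at an unadjusted p under 0.05. The part of these cells in the values of the members was not tested. Foxi1, Atp6v1g3, Atp6v0d2, Slc4a9 and Rhbg, 5 of the 10, lay below WT without overlap, beside 4.83% of all genes. Without AkCh 20, edgeR called 8 genes and 0 of the 10. The median of the 10 was then -0.25, and 8 estimates were below 0, with Atp6v0a4 at 0.63 and Car2 at 0.10. With this library these 2 had been 0.16 and -0.10. For Foxi1 the estimate was -0.38 with AkCh 20 and -0.29 without it, for Atp6v1g3 -0.41 and -0.47, for Atp6v0d2 -0.36 and -0.25, for Slc4a9 -0.55 and -0.51 and for Rhbg -0.57 and -0.25. Each of these 5 had an adjusted p of 1 with it and 0.431 without it. Atp6v1b1 was at -0.45 with it and -0.20 without it, Slc4a1 at -0.34 and -0.12, and Slc26a4 at -0.53 and -0.33.

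In AhCk against WT, 2 of the 10 were called lower and 0 higher, beside 1.53% and 0.836% of the 15902 genes tested. Atp6v1g3 fell by 0.57 (edgeR adjusted p = 0.0425) and Atp6v0d2 by 0.43 (adjusted p = 0.0496), each lower in 3 of 3 libraries. With these, Rhbg made 3 of 10 below WT without overlap, beside 15.2% of all genes. Both calls were lost with each of the 6 libraries left out in turn, with adjusted p of 0.0514 to 0.173 for Atp6v1g3 and 0.062 to 0.19 for Atp6v0d2, and with the correction for exon length (0.0792 and 0.0778). They were also lost in the fit of all 12 libraries (0.106 and 0.314), in that fit with Xist added (0.178 and 0.141) and with limma on the deposited normalized values (0.0804 and 0.0855). With scaling by library size only, or with no filter on low counts, Atp6v0d2 alone lost its call (0.0583 and 0.0576). DESeq2 called both lower (0.000345 and 0.00181), beside 4.9% of the 15587 genes it tested. Of the 5 stroma markers, 3 were called higher in AhCk, Col3a1, Lum and Postn (edgeR adjusted p from 0.0196 to 0.0376), with a median of 0.69. That number was 0 without WT 37, WT 55 or AhCk 110, 1 without AhCk_115, 2 without WT 30 and 4 without AhCk 38. The 7 liver markers had estimates above 0 (median 1.26), and edgeR called 0 of them, with 4 at an unadjusted p under 0.05. Without WT 55 or AhCk 110, 1 was called, and the median was 2.36 without WT 55 and 0.75 without WT 37. The 12 principal cell genes had estimates below 0 (median -0.22, and -0.12 without WT 55), and edgeR called 0, with 3 at an unadjusted p under 0.05. Of the 19 other intercalated cell genes tested 8 were above 0 and 11 below (median -0.03). Among these edgeR called 0, with 5 at an unadjusted p under 0.05. Their median was -0.19 without AhCk 38, and 1 was called higher without WT 30. Of 10 erythroid markers tested 9 were above 0 (median 1.01), with 0 called by edgeR and 1 at an unadjusted p under 0.05. That median was 0.24 without AhCk_115, and without AhCk 38 it was 1.56 with 1 called. The part of these markers in the values of the members was not tested. Genotype and sequencing run cannot be told apart here.

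The AkCk and AkCh libraries share a run. By their labels they differ in HoxC alleles, and as the study describes the double mutants they differ in Hoxa11 as well, so this comparison does not isolate either. In AkCk against AkCh, 0 of the 10 were called by edgeR, as were 0% of the 15764 genes tested. At an unadjusted p under 0.05 there were 1787 genes, 1 of them among the 10, and DESeq2 called 554 genes in all. Slc4a1 and Atp6v1b1 lay higher in AkCk without overlap, 2 of 10 beside 10.1% of all genes. The median of the 10 was 0.30, and 0.02 without AkCh 20, 0.11 without AkCk 27 and 0.53 without AkCh 33. The Slc4a1 difference was 0.76 (interval 0.13 to 1.39; edgeR adjusted p = 0.384), and without AkCh 20 it was 0.54 (adjusted p = 0.114). For Atp6v1b1 it was 0.58 (adjusted p = 0.52), and 0.32 without AkCh 20. For Atp6v1g3 it was -0.19 (interval -0.62 to 0.23; adjusted p = 0.677), and -0.14 without AkCh 20 (adjusted p = 0.663), which does not show that the genotypes have the same level. Without AkCh 20, edgeR called 687 genes and 0 of the 10.

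The genes most like a member were named by Pearson's r of log2 CPM after the genotype means were subtracted, over 12 libraries and 14222 other genes. For Foxi1 they were Brf1 (r = 0.952), Prune, 2610005L07Rik, Dzank1 and Usp54. For Atp6v1b1 they were Hook3 (r = 0.985), Scn4b, Bsnd, Fam63a and Ptpn21, and Bsnd encodes the chloride channel subunit barttin. For Slc4a1 they were B4galt1 (r = 0.953), Dhx57, Zfp949, Cd84 and B130034C11Rik. AkCh 20 is an end point for Atp6v1b1 and Slc4a1, and without it r was 0.962 for Hook3 and 0.930 for B4galt1, and 0.941 for Brf1 with Foxi1. Atp6v0a4 and Atp6v1g3 were added after the values were seen. For Atp6v0a4, Prkaa2 came first (r = 0.998, and 0.995 without AkCh 20). For Atp6v1g3, Slc35f6 came first (r = 0.946, and 0.947 without AkCh 20). Between members, r of Atp6v1b1 with Rhbg was 0.95 and 0.87 without AkCh 20, and r of Atp6v1b1 with Atp6v1g3 was 0.26 and 0.80. Other pairs changed sign without this library. For Slc4a1, r went from 0.49 to -0.50 with Atp6v0a4, from 0.65 to -0.22 with Rhbg and from 0.34 to -0.36 with Car2. For Foxi1 with Car2 it went from 0.11 to -0.35, and for Atp6v1g3 with Atp6v0a4 from -0.02 to 0.37.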

How the data were processed

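Whole kidneys were profiled by paired-end Illumina sequencing. The authors used Strand NGS (version not given in the sources used here) with mouse build mm10 and UCSC gene models, and dropped multi-mapping reads. They deposited expected counts per gene, which need not be whole, and normalized log2 values with a median of 0 per gene. After rounding the deposited expected counts, groups were compared in R 4.3.3 by edgeR 4.0.16 (TMM, quasi-likelihood test, filterByExpr with minimum count 10 and minimum total 15, Benjamini-Hochberg over all genes tested, threshold 0.05). Each fit held the 6 libraries compared. edgeR was the main test in place of the Audic-Claverie test of the study, which has no term for the spread between kidneys. Where a symbol was listed more than once (92 symbols), the entry with most counts was used under the symbol. With scaling by library total alone, a floor of 3 counts corresponds to 0.0637 to 0.105 CPM. These limits leave out the TMM factors used for the CPM levels given above. With TMM factors, 3 counts of Car5a in AkCh 20 were 0.115 CPM. The floor covers counting error only. The steps were tested on simulated data.

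Alternatives were other scalings, DESeq2 1.42.0, limma 3.58.1 on the log2 values, no low count filter, all 12 or the 9 libraries of 1 run in 1 fit, Xist as a covariate over all 12 libraries and each library left out. A correction for exon length was chosen after seeing the data, as were the proximal tubule and loop and distal tubule markers (of 5 loop and distal genes, Cldn16 was called higher in AkCk; the count was 0 without WT 37, WT 55, AkCk 24 or AkCk 27 and 2 without WT 30). The members and lists were chosen with earlier results of these data known. The rule for named genes took all members, the called genes of each list (at most 4, by size) or the most abundant, the paralogs and the genes of highest r. Of 66 pairs of libraries the smallest chi-square per degree of freedom was 12.9, so no library was a duplicate within sampling noise. This pair was WT 30 and AkCh 33, and the smallest value within a genotype was 14.8. WT 30 was at 44.2 with WT 37 and at 59.3 with WT 55. Exon lengths were matched for 94.7% of the genes tested in AkCk against WT. Plots used matplotlib 3.10.9 in Python 3.11.15.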

Additional observations from a re-analysis of the deposited data

How the results depend on the processing

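The 10 genes in 4 comparisons gave 590 values under the alternatives. Of these, 524 kept their direction and side of the threshold, 29 lost a call, 4 gained one and 33 changed sign without passing the threshold before or after. The correction for exon length was chosen after seeing the data. The fits with Xist held all 12 libraries, so their counts stand beside those of the 12-library fit without it. The cause of the changes below was not tested.

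In AkCk against WT, 2171 genes were called by edgeR. The count was 3380 with DESeq2, 1190 with all 12 libraries in 1 fit, 690 with the 9 libraries of 1 run, 1215 with limma on the deposited values and 1009 with Xist as a covariate over all 12, and ran from 535 without WT 37 to 3386 without WT 30 with 1 library left out. The members called lower numbered 2 with library size only and with DESeq2, 0 with the 9 libraries and with limma, and 0 to 1 with 1 library left out, and those called higher 0 to 1. With Xist as a covariate 1 was called lower, Slc4a9 in place of Atp6v1g3. In AkCh against WT, edgeR called 0 genes, with 360 at an unadjusted p under 0.05. The count was 22 with DESeq2, 2 with all 12 libraries, 1 with limma and 0 to 8 with 1 library left out, the 8 without AkCh 20. In AhCk against WT, 376 were called, and 1318 with DESeq2, 149 with all 12 libraries, 158 with limma, 134 with Xist over all 12 and 60 without WT 37 to 549 without WT 30 with 1 library left out, including 63 without AhCk 110, 70 without WT 55 and 99 without AhCk_115. Members called lower there fell from 2 to 1 with library size only or no low count filter, and to 0 with all 12 libraries, limma, Xist, the exon length correction and each library left out. In AkCk against AkCh, edgeR called 0 genes, with 1787 at an unadjusted p under 0.05. The count was 554 with DESeq2, 1 with no low count filter, 540 with all 12 libraries, 181 with the 9 libraries, 1 with limma, 653 with Xist over all 12, 2 with the exon length correction and 0 to 687 with 1 library left out, the 687 without AkCh 20.

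For the sign changes, values are log2 fold changes. In AkCk against WT, Car2 was -0.033 with library size only and -0.047 with Xist, Atp6v1b1 -0.15 and Slc26a4 -0.22 with Xist. With 1 library left out, Atp6v1b1 ran from -0.11 to 0.21, Slc26a4 from -0.40 to 0.49, Car2 from -0.11 to 0.13 and Rhbg from -0.16 to 0.077. In AkCh against WT, Atp6v0a4 was -0.18 with limma and -0.48 with Xist, and ran from -0.36 to 0.63 with 1 library left out, and Car2 from -0.32 to 0.097. In AhCk against WT, Slc4a9 was -0.024 with Xist, and with 1 library left out Slc4a9 ran from -0.035 to 0.20, Foxi1 from -0.23 to 0.023, Atp6v1b1 from -0.16 to 0.021 and Atp6v0a4 from -0.18 to 0.63. In AkCk against AkCh these ranges were -0.011 to 0.15 for Foxi1, -0.077 to 0.24 for Atp6v0d2, -0.022 to 0.96 for Atp6v0a4, -0.028 to 0.19 for Slc4a9 and -0.050 to 0.36 for Car2.

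The lowest count of the 10 genes in a library was 50, for Slc26a4 in AkCh 20, above the floor of 3 counts. Among the markers, Car1 was at 0 to 4 counts per library, where no difference was detectable at this depth.

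The groups share no replicate numbers and the labels give no litter, so libraries could not be paired.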
